A study of Homo sapiens with 42 samples.

Results

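TadA-8e is an evolved form of a bacterial tRNA deaminase that turns adenosine in RNA into inosine, which sequencers read as G. With a nuclear localisation signal (NLS) the enzyme is held in the nucleus, so the A-to-G rate of an RNA records its contact with the enzyme there. The comparison described here set this nuclear enzyme in K562, a human erythroleukaemia line that carries BCR-ABL1 and expresses embryonic and fetal globins, against the same enzyme in HEK293T, a line from human embryonic kidney. It rests on 4 poly(A)-selected RNA libraries, 2 of each line, out of 42 libraries in the series. All K562 and HEK293T rows listed for the NLS enzyme in poly(A) RNA were taken, which gave 560441 sites in K562 and 574863 in HEK293T, and 772920 different sites in all. A site is 1 adenosine with its chromosome, position and strand in hg38. The 362384 sites listed in both lines were compared by their rate, 64.7% of the K562 sites and 63.0% of the HEK293T sites.

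In both groups the cells received a TadA-8e NLS expression plasmid and GFP-positive cells were sorted before RNA was extracted. HEK293T cells were transfected by lipofection and K562 cells by electroporation, in different media. The line, its medium and the route of delivery therefore cannot be told apart. The amount of enzyme per cell was not analysed here. The same 2 lines also received TadA-8e with a nuclear export signal (NES), which places it in the cytoplasm, and these 4 poly(A) libraries, 2 of each line, served as the reference for the last comparison. Nothing in the labels ties the 2 replicates of a line to separate cultures. The p-values therefore measure a spread between libraries that may be technical.

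An mRNA meets a nuclear enzyme while it is transcribed, spliced and kept in the nucleus, and leaves it on export. Transcripts of stress and immediate early genes are short-lived and are made in bursts, long noncoding RNAs such as MALAT1 stay in the nucleus, and ribosomal protein mRNAs are stable and mostly cytoplasmic. The rate is a property of the RNA molecules that were sequenced and not a level of expression. Every listed site has an authors' adjusted p under 0.05 in both replicates. What it was tested against is not given in the sources used here. Listing can also move with how many reads cover a gene.

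Short stretches of RNA around sites show what the enzyme wrote on in both lines. No genome sequence was at hand. Sites were therefore read where they fell on the transcribed strand of a RefSeq window (GRCh38.p14) or of a miRNA hairpin. A window held 300 bases, 250 before and 50 after an annotated gene start. Of the 1884 shared sites in such windows, 1884 were an A, as were 81 of 81 in hairpins. The 4 gene-start sites of highest rate are shown first, and then the 2 in each direction that differed most between lines by log2 ratio, with at least 5% in the lower line and 1 per gene, and last 2 of the 3 hairpin sites of highest rate. MGAT4B has 2 windows, with 1 site shown from each. Each is written 5′ to 3′, with the base before the edited A and the A itself in capitals.
BAG6, chr6:31652448-31652468, minus strand: atccccaaaTActatcgggga
TLK2, chr17:62479058-62479078, plus strand: ctggctctgTAcgcgagcccg
MGAT4B, chr5:179802877-179802897, minus strand: aaggccttgTAggccacatag
OTUD5, chrX:48957674-48957694, minus strand: cgatcccttTAtccgggtctc
MGAT4B, chr5:179806837-179806857, minus strand: cgcccctgaTAtctgcagtga
TOB1, chr17:50866315-50866335, minus strand: cccggcgtgTAgcgggcgcac
H2BC11, chr6:27132748-27132768, minus strand: ttatagctaCAcagtgctatg
PQBP1, chrX:48898007-48898027, plus strand: gggcccaggTAtcgtagcggc
MIR3064 hairpin, chr17:64500798-64500818, minus strand: aaaacuccgUAcauugcuauu
MIR6501 hairpin in SON, chr21:33550685-33550705, plus strand: ugacagcagCAguagaguugc

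The BAG6 site was changed in 66.4% and 62.0% of reads in the HEK293T libraries and in 70.2% and 74.4% in K562. TLK2 had 62.9% and 50% in HEK293T and 68.8% and 75.4% in K562. At the first site of MGAT4B, which encodes an N-glycan branching enzyme, the lines overlapped, with 57.1% and 62.5% in HEK293T and 70% and 53.8% in K562. The OTUD5 site overlapped too, with 55.1% and 60.2% in HEK293T and 70.8% and 55.3% in K562. The MIR3064 hairpin site also reached high rates in every library, 67.2% and 63.1% in HEK293T and 70.3% and 73.9% in K562. At the second MGAT4B site the rate was 6.74% and 11.6% in HEK293T and 32.4% and 58.3% in K562, with a wide gap between the K562 libraries. In TOB1, an antiproliferative factor of mRNA deadenylation, the rate was 8.60% and 10.3% in HEK293T and 27.3% and 29.1% in K562. The other direction was seen in H2BC11, a histone H2B gene, with 47.9% and 52.6% in HEK293T and 16.7% and 26.4% in K562. PQBP1, a splicing-associated protein, had 12.8% and 13.1% in HEK293T and 5.11% and 5.18% in K562. At the SON site, inside the MIR6501 hairpin, HEK293T had 57.3% and 54.4% and K562 37.2% and 40.3%. Relative to the annotated gene start, the sites stood at -68 in BAG6, -50 in TLK2, -12 and 20 in MGAT4B and -77 in OTUD5. Those in TOB1, H2BC11 and PQBP1 stood at 30, 38 and -239. Negative positions lie before that start, so such a site need not be in the RNA of the named gene. All these sites were picked for their values and carry no test.

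The base before the edited A was counted over sites listed in both lines, so its shares are 1 set of values for both and only the rates can differ between lines. Of the 1476 window sites with 10 bases on each side, U stood before the A in 51.4%, C in 32.4%, G in 10.6% and A in 5.69%. Among all 54943 adenosines of the same windows the shares were 14.0% for U, 29.4% for C, 32.5% for G and 24% for A. Sites after U had a mean rate of 13.7% in HEK293T and 14.4% in K562, and sites after C 6.92% and 7.00%. After G the mean rates were 5.74% and 5.76%, and after A 3.46% and 3.54%. Both lines had their highest mean over the triplet UAC, with 15.3% in HEK293T and 16.1% in K562 over 262 sites. In 51-base windows folded with ViennaRNA, the 693 sites whose A was unpaired with a probability of at least 0.75 had a mean of 11.4% in HEK293T and 11.9% in K562. The 105 sites with a probability under 0.25 had 9.78% and 9.74%. Most of each window lies before the annotated gene start, so these values describe that stretch and not the other shared sites. The adenosines counted there need not all be transcribed.

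Over all shared sites the mean rate was 8.85% and 9.18% in the HEK293T libraries and 10.2% and 10.3% in the K562 libraries. The lines did not overlap, and the difference of 1.25 percentage points was larger than the SD of either (0.239 in HEK293T, 0.0474 in K562). The exact two-sided permutation test gave p = 0.333, the smallest that 2 libraries against 2 can give. Over 362384 sites the log2 rates of the 2 lines' means correlated at r = 0.930, and single libraries at 0.921 between the K562 replicates and 0.930 between the HEK293T replicates. Over 5600 genes r was 0.921 between the means of the lines and 0.978 and 0.979 between the K562 and the HEK293T replicates. Means of 2 libraries hold less noise than single libraries, so the values between and within lines are not on 1 footing and are no measure of likeness. These correlations are across sites and genes of the same 4 libraries, so the points are not independent.

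Each gene was given, per library, the average of its sites shared by the lines, and 5600 genes with at least 5 such sites were tested with limma. Differences are log2 of K562 over HEK293T, after each library was centred on its own median gene, because the median gene was 0.23 log2 higher in K562 as deposited. After centring, 967 genes were higher in K562 (17.3% of those tested) and 1445 were lower (25.8%). Without centring, 2734 were higher (48.8%) and 388 lower (6.93%), so the split of calls moved from 40.1% higher to 87.6% higher. "Higher" and "lower" below mean relative to the median gene, and percentages are rates as deposited. Most differences were small: the middle 90% of genes lay between -0.53 and 0.48, and only 10 genes were called more than 2-fold higher and 22 more than 2-fold lower. The libraries of the lines did not overlap in 29.7% of genes on the higher side and 39.6% on the lower side.

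EGR1, an immediate early transcription factor on chr5:138465479-138469303, had the lowest K562 rate relative to HEK293T among genes with at least 10 shared sites. Over its 13 shared sites the rate was 39.4% and 38.9% in HEK293T and 15.1% and 15.3% in K562 (log2 difference -1.63, SE 0.13, limma adjusted p = 2.84e-10). TRIB3, a pseudokinase induced in the integrated stress response, had 18.6% and 19.6% in HEK293T and 9.10% and 9.02% in K562 (-1.34). Libraries that did not overlap between the lines were a condition for naming these genes. H2BC12, a histone H2B gene, had 8.59% and 8.87% in HEK293T and 4.19% and 4.09% in K562 over 81 sites (-1.34). MIF, a cytokine, had 3.55% and 3.46% against 1.61% and 1.78% (-1.31). PPP1R15A, which brings a phosphatase to the translation factor eIF2, had 12.2% and 12.4% against 6.42% and 6.77% (-1.17). SESN2, a p53-induced restraint on mTORC1, had 10.7% and 12% against 6.09% and 6.34% over 120 sites (-1.13). All 6 genes lay on the side of lower rates in K562 also as deposited.

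The next in this direction were MBNL2, a splicing regulator (-1.10), and MAP1LC3B, the autophagosome protein LC3B (-1.07 over 190 sites). The kinase TAOK3 stood at -1.04 and the immediate early gene IER2 at -1.03, and both were past the threshold. IER2 had 17.4% in both HEK293T libraries and 10.1% and 10.3% in K562 over 87 sites. DDIT4, an mTORC1 inhibitor made under stress, had 4.93% and 4.63% in HEK293T and 2.79% and 2.91% in K562 (-1.01), and the replication licensing factor CDT1 stood at -1.0. The number of listed sites moved with the line in both directions among these genes. TRIB3 had 21 listed sites in HEK293T and 64 in K562, and DDIT4 46 and 133, whereas MIF had 68 and 26 and CDT1 111 and 55. Across the 5600 genes the difference in rate and the log2 ratio of listed sites correlated at r = -0.03, given as a description.

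Among the genes higher in K562, TBC1D4 and ID2 led. TBC1D4, a Rab GTPase-activating protein of glucose transport on chr13:75283503-75482169, had 7.37% and 7.75% in HEK293T and 28.8% and 26.1% in K562 over 16 sites (log2 difference 1.59, SE 0.12, limma adjusted p = 1.65e-10). ID2, an inhibitor of basic helix-loop-helix factors on chr2:8682056-8684461, had 6.01% and 6.42% against 21.3% and 21.0% over 52 sites (1.5, SE 0.08, limma adjusted p = 1.61e-13). In both genes fewer sites were listed in K562, 24 against 64 for TBC1D4 and 53 against 109 for ID2. LGR4, a receptor for R-spondins, had 9.70% and 9.89% in HEK293T and 31.2% and 30.1% in K562 (1.38). HES1, a repressor downstream of Notch, had 11.8% and 10.8% against 29.1% and 28.7% (1.09). COQ8A, of coenzyme Q synthesis, had 5.88% and 8.19% against 18.8% and 17.1% (1.10). RPL22L1, a paralogue of a ribosomal protein, had 5.00% and 5.06% against 12.8% and 12.3% (1.06). The remaining 6 were TWF1, an actin-binding twinfilin (0.95), ZBTB33, the methyl-CpG reader Kaiso (0.92), TARS2, the mitochondrial threonyl-tRNA synthetase (0.91), HMGN3, a nucleosome-binding protein (0.90), APMAP (0.88) and CPNE3, a copine (0.86). The 24 genes of both directions kept their sign in every fit that left out 1 library. The condition of no overlap fixed this in advance, so it is no check. Over only sites at an adjusted p under 1e-6 in all 4 libraries, 9 of the 24 could be tested. These 9 were called in the same direction, but EGR1, TRIB3 and TBC1D4 were not among them.

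**Figure D1:**
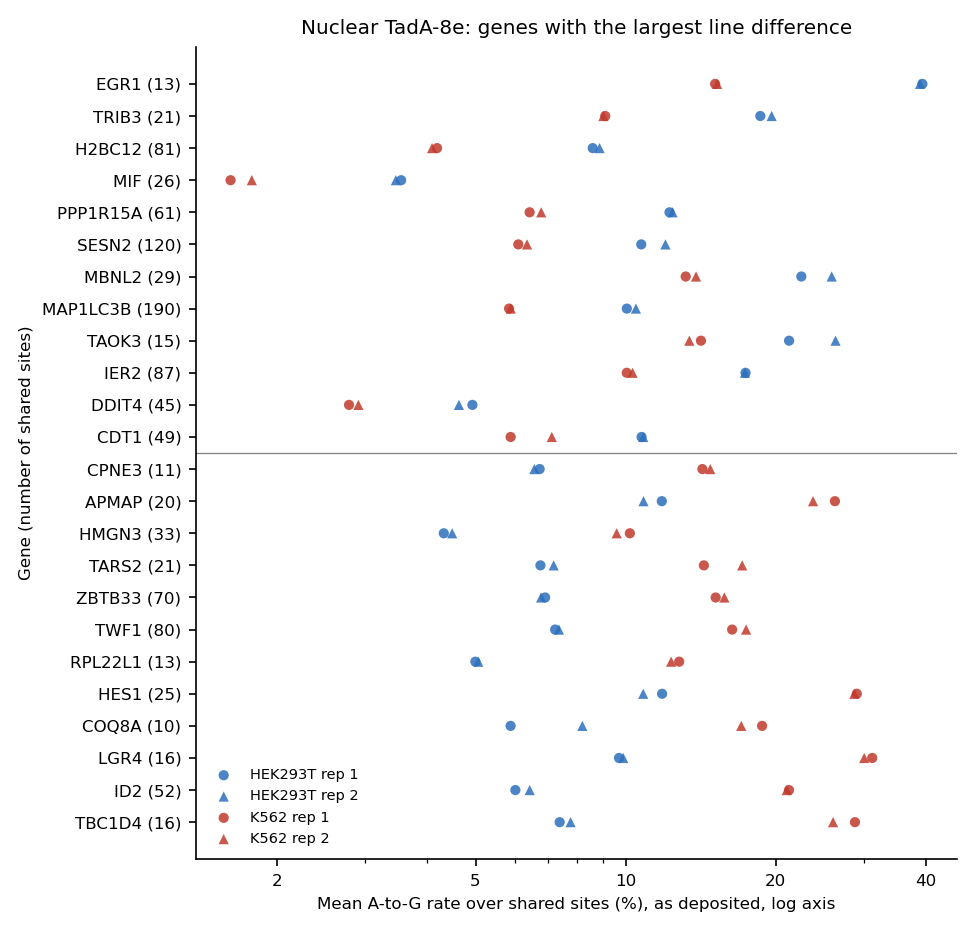
Mean A-to-G rate over shared sites (x axis, %, log scale) of the 12 genes furthest in each direction (y axis, with the number of shared sites), 1 point per library. In EGR1 the K562 points sit at 15.1% and 15.3% and the HEK293T points at 39.4% and 38.9%. The genes were chosen among those whose libraries do not overlap between the lines.

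Genes of the integrated stress and unfolded protein responses, through which cells answer amino acid lack, eIF2 phosphorylation and misfolded protein in the ER, were lower in K562 almost throughout. Of 26 tested members, 23 were lower and 0 higher, next to 25.8% and 17.3% of all tested genes, with a median of -0.59 against -0.03 over all genes. As deposited, 17 were lower and 1 higher, next to 6.93% and 48.8% of all tested genes. The shares over all tested genes, centred and as deposited, are the reference for every list below. PPP1R15B, the constitutive partner of the eIF2 phosphatase, had 13.2% and 14.9% in HEK293T and 11.6% and 11% in K562 over 266 sites (-0.58), and SARS1, the seryl-tRNA synthetase, had 12.5% and 12.9% against 10.7% and 10.5% (-0.52). HSP90B1, the ER chaperone GRP94, had 3.18% and 3.32% against 2.83% and 2.85% (-0.46). ATF4, the transcription factor at the centre of the response, was at -0.20 relative to the median gene, with overlapping rates as deposited of 4.43% and 4.56% in HEK293T and 4.48% and 4.90% in K562, where its difference was 0.060. It lost the call without K562 replicate 1. ASNS, an ATF4 target for asparagine synthesis, had 183 listed sites in HEK293T and 0 in K562, and CHAC1 had 4 sites in K562 and 0 in HEK293T. With only sites at an adjusted p under 1e-6 in all 4 libraries, 17 of 21 members were lower and 0 higher. That fit tested fewer genes and called 464 higher and 734 lower in all, so the shares above are not its reference.

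Targets of p53, which is mutated and inactive in K562 and bound by viral T antigen in HEK293T, were mostly lower. The lists share members, for example SESN2 stands in this list and in the stress response list. Of 12 tested members 8 were lower (66.7%) and 0 higher, next to 25.8% and 17.3% of all tested genes, with a median of -0.50. As deposited, 6 were lower and 1 higher. MDM2, the p53 ubiquitin ligase, had 15.2% and 15.5% in HEK293T and 10.5% and 11.1% in K562 over 203 sites (-0.77). GADD45A, a growth arrest gene, had 9.86% and 10.5% against 6.78% and 7.00% (-0.83), and TNFRSF10B, a death receptor, had 16.5% and 16.8% against 13.7% and 13.3% (-0.57). In MDM2 the listed sites numbered 543 in HEK293T and 208 in K562, while GADD45A had 71 and 115. TIGAR, PHLDA3, FAS and TP53INP1 were listed only in HEK293T, with 47, 38, 16 and 16 sites, and GDF15 and TP53I3 only in K562, with 14 and 1.

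Heat shock and chaperone mRNAs were lower in 20 of 26 tested members (76.9%) and higher in 1 (3.85%), with a median of -0.31. The shares over all tested genes were 25.8% and 17.3%. As deposited the split was 11 lower and 5 higher. HSP90AA1, a cytosolic chaperone, had 2.83% and 2.92% in HEK293T and 2.18% and 2.20% in K562 over 804 sites, the most of any tested gene (-0.65). HSPD1, the mitochondrial chaperonin, had 3.98% and 4.06% against 3.53% and 3.42% (-0.47), and TCP1, of the cytosolic chaperonin, had 5.36% and 5.51% against 5.03% and 5.08% (-0.37). HSPA8, the constitutive HSC70, had 2.08% and 2.16% against 2.08% and 2.05%, so its -0.30 after centring stood beside -0.04 as deposited.

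Immediate early and short-lived mRNAs were not of 1 direction: 13 of 21 were lower (61.9%) and 6 higher (28.6%). The shares over all tested genes were 25.8% and 17.3%. As deposited 8 were lower and 8 higher. ARRDC3, an arrestin-domain adaptor, had 20.1% and 21.1% in HEK293T and 21.8% and 21.9% in K562, a difference of -0.18 relative to the median gene that became 0.088 as deposited. TXNIP, an inhibitor of thioredoxin, had 15.0% in both HEK293T libraries and 16.4% and 16.6% in K562, with -0.13 centred, a call that every fit leaving out 1 library lost, and 0.14 as deposited, and it had 172 listed sites in HEK293T and 708 in K562. CCN1, NR4A1, ID3 and SGK1 of this list were listed only in HEK293T, with 29, 22, 17 and 3 sites. The 4 tested histone mRNAs, of a family whose main transcripts end in a stem-loop without a poly(A) tail, were lower in 4 of 4, with a median of -1.14. The linker histone H1-2 had 21.5% and 19.2% in HEK293T and 7.48% and 7.79% in K562 over 8 sites (-1.68), and H2BC5 had 32.0% and 37.8% against 19.4% and 24.1% over 7 sites (-0.95). Listed sites numbered 8 in HEK293T and 67 in K562 for H1-2, and 7 and 34 for H2BC5. Neither gene could be tested over only sites at an adjusted p under 1e-6 in all 4 libraries. H1-10 had 10.1% and 10.0% against 8.49% and 9.78% (-0.41), and as deposited 3 of the 4 were lower. Of 28 listed histone genes, 18 were listed only in K562, led by H2BC21 with 79 sites and H2BC4 with 24, and 2 only in HEK293T. Over all names listed in either line, 9.74% were only in K562 and 16.0% only in HEK293T. Histone genes resemble each other in sequence, as do many ribosomal protein and HSPA genes and their processed copies, so reads could have been assigned between copies.

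The opposite pattern was seen in cholesterol and fatty acid synthesis, whose genes are turned on together by the SREBP factors when sterols are low. Of 26 tested members 16 were higher in K562 and 0 lower, with a median of 0.28, and as deposited 21 were higher and 0 lower. SCD, which puts the double bond into saturated fatty acids, had 3.19% and 3.40% in HEK293T and 6.51% and 6.33% in K562 over 339 sites (0.70, limma adjusted p = 9.2e-13), with 416 and 420 listed sites. FASN, the fatty acid synthase, had 5.89% and 6.08% against 9.79% and 9.87% (0.45). HMGCS1, an enzyme of sterol synthesis, had 5.73% and 6.36% against 8.97% and 8.57% (0.28). In each of these 3 genes the K562 libraries lay above the HEK293T libraries also after centring, as in 29.7% of all tested genes. SREBF1, which encodes an SREBP, and MVK were listed only in K562, with 9 sites and 1.

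Glycolysis genes split, with 7 of 16 higher (43.8%) and 4 lower (25%), next to 17.3% and 25.8% of all tested genes. Without HEK293T replicate 1 or K562 replicate 2 only 4 were higher, and without the latter 2 were lower. As deposited 12 were higher and 1 lower. PKM, pyruvate kinase, had 2.77% and 2.74% in HEK293T and 4.90% and 5.04% in K562 (0.59), and ENO1, enolase, 2.02% and 2.01% against 2.64% and 2.71% (0.15, not called without K562 replicate 2 or with the median of site rates, at 0.14 in both). GAPDH had 2.92% and 2.94% against 3.19% and 3.09%, a centred difference of -0.16 that was 0.10 as deposited, -0.38 with the median of site rates and, without K562 replicate 2, -0.13 and not called, and LDHB had 1.99% and 2.03% against 1.94% and 1.99% (-0.29). The glucose transporter SLC2A3 was listed only in K562, with 182 sites. Of 45 respiratory chain mRNAs 7 were higher and 11 lower, close to the shares over all genes, and 4 were higher without HEK293T replicate 2 or K562 replicate 1. As deposited 25 were higher and 2 lower. ATP5F1B, of ATP synthase, stood at 0.19, a call that was lost without K562 replicate 1 (0.14) and with the median of site rates (0.049). CYCS, cytochrome c, stood at -0.69.

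**Figure D2:**
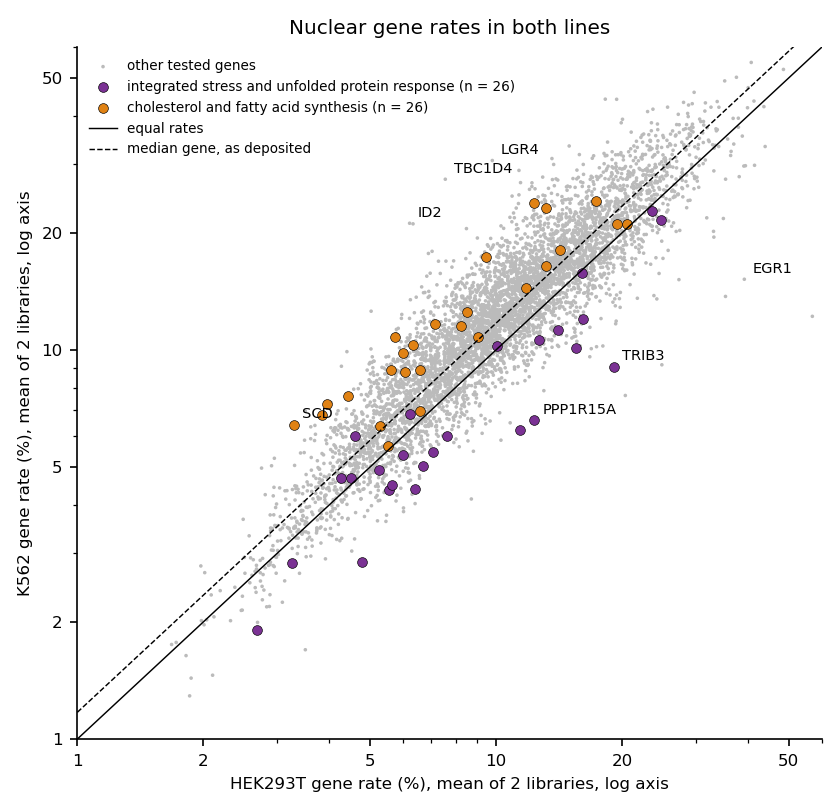
Gene rates in HEK293T (x axis) and K562 (y axis), each the mean of 2 libraries in % on a log scale, for the 5600 tested genes. The solid line marks equal rates and the dashed line the median gene; 23 of 26 stress response genes were called lower and 16 of 26 cholesterol and fatty acid genes higher.

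Cytosolic ribosomal protein mRNAs were lower in 62 of 81 tested members after centring and higher in 1, RPL22L1, with a median of -0.29. As deposited they were not, with 19 lower, 17 higher and a median of -0.03, so that they had about equal rates in the lines while the median gene was higher in K562. RPL6 had 5.15% and 5.04% in HEK293T and 4.85% and 5.07% in K562, and RPL15 4.00% and 4.11% against 4.05% and 3.91%. RPL4 had 4.67% and 4.66% against 5.20% and 4.90% (-0.15 centred, 0.11 as deposited), and it lost the call without K562 replicate 2 (-0.095). RPL3 had 3.71% and 3.80% against 4.45% and 4.44% (-0.02 and 0.24) and was not called, but it was called lower with site rates averaged as log2 (-0.52), with their median (-0.65), over only sites also listed with NES (-0.65) and over only sites at an adjusted p under 1e-6 (-0.30). Of 35 translation factor mRNAs 27 were lower and 2 higher, and as deposited 7 lower and 10 higher. EEF1A1, which brings tRNAs to the ribosome, had 4.19% and 4.29% against 3.21% and 3.26% over 548 sites (-0.65), and EEF2, the translocase, 4.56% and 4.68% against 3.84% and 3.79% (-0.54). EIF4G2, a relative of the scaffold eIF4G, went the other way with 3.46% and 3.91% against 5.83% and 5.87% (0.41), and EIF2S3 was -0.11 centred and 0.16 as deposited. The EIF2S3 call was lost without HEK293T replicate 2 (-0.077), without K562 replicate 2 (-0.071) and with a replicate block, while the median of site rates gave -0.29.

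Among secreted, ER and membrane protein mRNAs, 30 of 46 were lower and 1 higher (16 and 13 as deposited); CANX, the ER lectin calnexin, had 3.15% and 3.39% in HEK293T and 2.78% in both K562 libraries (-0.49). Of 29 actin and tubulin cytoskeleton mRNAs 12 were lower (41.4%) and 6 higher (20.7%), next to 25.8% and 17.3% of all tested genes. As deposited 5 were lower and 13 higher, next to 6.93% and 48.8% of all tested genes. ACTB, cytoplasmic actin, had 1.87% and 1.84% against 1.28% and 1.30% over 236 sites (-0.79). Of 46 DNA replication mRNAs 20 were lower (43.5%) and 4 higher (8.70%), next to the same shares, and as deposited 9 and 17. Without HEK293T replicate 1 or K562 replicate 1 only 1 and 2 were higher. MCM7, of the replicative helicase, had 6.45% and 6.71% against 4.91% and 5.11% (-0.66). G2 and mitosis mRNAs were lower in 28 of 47 and higher in 3, but 12 and 12 as deposited. In SMC4, TOP2A and CENPF the rates of the lines overlapped as deposited, for example 5.17% and 5.75% in HEK293T and 5.67% and 5.14% in K562 for the topoisomerase TOP2A. PRC1, of the central spindle, had 13.2% and 14.1% against 12.7% and 12.3%. UBE2C of this list had 62 listed sites in HEK293T and 0 in K562.

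RNAs that stay in the nucleus differed one by one. MALAT1, which collects at nuclear speckles, on chr11:65497738-65506516, had 21.2% and 19.3% in HEK293T and 29.3% in both K562 libraries over 274 sites (0.27), and it had 971 listed sites in K562 and 274 in HEK293T. NORAD, which binds Pumilio proteins and is found largely in the cytoplasm, stood in the same list and had 6.19% and 6.74% against 9.75% in both K562 libraries (0.33). TUG1 had 15.3% and 15.7% against 12.3% and 11.9% over 216 sites (-0.62), with 523 listed sites in HEK293T and 239 in K562. NEAT1, the scaffold of paraspeckles, had no row of its own name. Sites inside its RefSeq interval on chr11:65422798-65445540 were listed under FRMD8, a neighbouring gene: 435 of 439 rows with that name in K562 and 229 of 229 in HEK293T. Over the 223 shared ones the rate was 9.71% and 9.92% in HEK293T and 8.27% and 8.15% in K562. The locus was looked at after its values were seen, and with the NES enzyme it had 17 listed sites in HEK293T and 36 in K562.

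Of 15 snoRNA host RNAs, which are exported and decayed during translation, 10 were lower and 0 higher, and 3 and 1 as deposited; SNHG1 had 10.5% and 10.6% in HEK293T and 10.2% and 9.95% in K562. SR splicing factor mRNAs, which can hold retained poison exons or introns, were lower in 10 of 13 and higher in 1, and 3 and 4 as deposited. SRSF1 had 8.63% and 9.32% against 7.58% and 7.46% over 502 sites (-0.52), whereas SRSF10 was -0.11 centred and 0.15 as deposited, and lost the call without HEK293T replicate 2 (-0.088) or K562 replicate 2 (-0.082). Among 44 mRNAs with known detained introns, as deposited 4 were lower and 26 higher, next to 6.93% and 48.8% of all tested genes. After centring 17 were lower (38.6%) and 8 higher (18.2%), next to 25.8% and 17.3% of all tested genes. The 8 became 4 without HEK293T replicate 1 and 3 without K562 replicate 1. SON, a speckle protein, had 12.1% and 12.5% against 9.74% in both K562 libraries over 661 sites (-0.60). HNRNPH1 had 9.58% and 10.3% against 12.5% and 12.7% over 800 sites, and its 0.081 lost the call without HEK293T replicate 1, K562 replicate 1 or K562 replicate 2 and with a replicate block, and SRRM2 7.01% and 7.29% against 6.82% and 7.07% (-0.30).

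Genes listed in only 1 line included most markers of each line. Of 8453 single gene names in K562 and 9078 in HEK293T, 7473 were in both, 980 only in K562 and 1605 only in HEK293T. With at least 5 listed sites, 504 were only in K562 and 780 only in HEK293T. Of these 504 and 780 genes, 381 and 579 were also without a site for the NES enzyme in the other line. Listing can depend on how much of an RNA there is to read, and these counts are not rates. All 10 defining K562 markers (among them GATA1, TAL1, HBG1, HBG2, HBE1, HBZ, LMO2, NFE2 and GFI1B) had sites in K562, 719 together, and 0 in HEK293T. HBG1 and HBG2 are nearly identical in sequence. Of 8 HEK293T markers, HOXD10, NEFM, NEFL, CDH2, KRT18 and INA had sites in HEK293T, 249 together, and PAX2 and LHX1 had none in either line. KRT18, a keratin, went against its place in that list, with 131 sites in K562 and 22 in HEK293T.

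Of the 41 erythroid and megakaryocytic regulator and surface genes 32 were listed in at least 1 line, 24 only in K562 and 2 only in HEK293T. Over all 10058 names listed in either line, 9.74% were only in K562 and 16.0% only in HEK293T. RHAG, of the Rh complex, had 186 sites with a mean rate of 2.96% and 3.20% in the K562 libraries, and KEL, the Kell antigen, 169 sites with 20.2% and 19.8%. ANK1, erythrocyte ankyrin, had 132 sites. Globin mRNAs had low rates: HBE1, embryonic epsilon globin, 1.55% and 1.57% over 111 sites, HBG2, fetal gamma globin, 0.921% and 1.00% over 103 sites, and HBZ, zeta globin, 3.49% and 4.47% over 66 sites. These mRNAs are very stable, but a link of stability to their rates was not tested. ALAS2, the erythroid enzyme at the start of haem synthesis, had 64 sites with 8.69% and 9.26%. HMOX1, which breaks haem down, was listed only in HEK293T with 30 sites. Of the shared members, TFRC, the transferrin receptor, had 5.74% and 6.41% in HEK293T and 7.33% and 7.42% in K562 (0.02 relative to the median gene), and GATA2 13.9% and 14.3% against 14.4% and 15.4% (-0.18, and 0.080 as deposited). GATA2 lost the call without K562 replicate 1 (-0.15) and over only sites at an adjusted p under 1e-6 (-0.083). TFRC and GATA2 had more listed sites in K562, 518 against 244 and 317 against 158.

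Of the 43 embryonic kidney and neural genes 28 were listed in at least 1 line, 18 only in HEK293T, next to 16.0% of all names. The 18 were led by UCHL1 (159 sites), TLE4 (156), SOX4 (147) and BEX3 (102). EPCAM, with 72 sites, and WT1, with 3, were listed only in K562. Of the shared members VIM, vimentin, did not pass the test, with 3.05% and 3.13% in HEK293T and 3.48% and 3.49% in K562 (-0.09, and 0.17 as deposited). MAP1B, a microtubule protein of neurons, had 14.6% and 16.2% against 11.3% in both K562 libraries (-0.71). Apart from the lists, the K562-only genes with the most sites were CPED1 (512), ANXA1, an annexin (325), LOC102724908 (301), FAM83A (266), LINC01029 (265), EPM2AIP1 (245), OPN3, an opsin (244) and GABRE, a GABA receptor subunit (239). In HEK293T they were ENAH, an actin regulator (316), PLS3, plastin 3 (311), SCML1 (274), IRS4, an insulin receptor substrate (263), APP, the amyloid precursor (218), BEND4 (215), FHL1 (211) and FKBP10, a collagen chaperone (209). STAT5A (81 sites), GAB2 (51), JAK2 (19) and CISH (9) of BCR-ABL and JAK-STAT signalling were listed only in K562, and SPRY2 (33) only in HEK293T. Of 24 listed members, 5 were only in K562 and 1 only in HEK293T, next to 9.74% and 16.0% of all names. Of the 14 tested members of that list 3 were higher (21.4%) and 6 lower (42.9%) in K562, next to 17.3% and 25.8% of all tested genes. As deposited 7 were higher and 4 lower. Of the interferon and RNA-sensing list IFITM1 (65) and IFITM3 (17) were listed only in K562, and IFI6, IFIT5 and IRF9 only in HEK293T, with 1 site each.

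Single sites were compared next. With the variance modelled on the mean rate, limma called 0 of 362384 sites higher and 0 lower in K562, against 22758 and 27876 at an unadjusted p under 0.05. Within genes, where a site's difference is taken relative to the other sites of its gene, it also called 0 and 0 of 355243, with 12853 and 12827 unadjusted. On simulated data this fit recovered 0% of sites moved by 1 or 2 log2, so the 0 is no statement about the sites. A fit chosen after seeing this, with the variance modelled on the authors' adjusted p, called 2240 sites higher (0.618%) and 6443 lower (1.78%), together 2.4%. Within genes it called 33 higher (0.00929%) and 44 lower (0.0124%), together 0.0217%, in 55 genes. Without 1 of the 4 libraries the latter counts were 19 to 129 and 16 to 416, so their number rests on single libraries. The named sites below passed only this added fit. RFC4, HSPA8, LDHA, HSP90B1 and the DDX39B readthrough site passed it with each library left out. SCD, SRRM2 and TSPYL1 were not called without HEK293T replicate 1 or replicate 2, CLIC1 and NOP56 not without HEK293T replicate 1, and PRAME not without HEK293T replicate 2.

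A site in RFC4, a subunit of the clamp loader of replication, at chr3:186790404 on the minus strand had 27.0% and 29.9% in HEK293T and 7.87% and 5.97% in K562, while its gene differed by -0.27 over 82 sites (-2.02 relative to the gene, limma adjusted p = 0.000145). Its 3 neighbouring sites within 50 bases had a median log2 ratio of -0.12. In HSPA8 a site at chr11:123062087 had 21.2% and 22.4% in HEK293T and 9.29% and 9.18% in K562 (-1.22 relative to the gene), whose mean rate was near 2% in both lines. With the NES enzyme the same HSPA8 site had 58.2% in HEK293T and 27.8% in K562. In SCD, LDHA and the chloride channel gene CLIC1 the site was not higher in K562, while the gene differed by 0.70, 0.23 and 0.19. The SCD site at chr10:100356659 had 9.86% and 11% in HEK293T and 9.97% and 9.03% in K562. The site in LDHA, lactate dehydrogenase, at chr11:18402896 had 6.65% and 8.69% against 4.97% and 5.33%, and that in CLIC1 at chr6:31736379 9.38% and 8.40% against 6.30% and 7.15%.

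In the other direction, a site in SRRM2 at chr16:2769475 had 11% and 8.33% in HEK293T and 32.6% and 36.8% in K562, in a gene at -0.30 (1.98 relative to the gene, limma adjusted p = 0.0258). TSPYL1, of the TSPY-like family, held a site at chr6:116277629 with 7.31% and 7.61% against 22.2% and 24.6% (1.56). The site in HSP90B1 at chr12:103934208 had 6.84% and 7.35% against 15.2% and 14.3%, again in a gene lower in K562 (-0.46), and the NES enzyme gave 12.2% and 23.6% there. NOP56, of the box C/D snoRNP, had 6.13% and 8.46% against 19.1% and 21.4% at chr20:2656411, and its 14 neighbours within 50 bases had a median log2 ratio of 0.87, so the stretch moved with it. PRAME, a tumour antigen, had 5.63% and 5.83% against 12.4% and 14.3% at chr22:22556917. The readthrough name ATP6V1G2-DDX39B held a site at chr6:31539155 with 14.1% and 16.9% against 27.2% and 28.5%, where the NES enzyme gave 14.6% and 14.3%.

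DNA reads were set beside the K562 sites to see whether listed sites coincide with changes in DNA. The genomic DNA table gives 1 K562 library with the NLS enzyme and 1 control library, without strand, and each of its 878631 positions has a changed read in both. Of the 560441 K562 sites 33 (0.00589%) were among these positions, and 18 of the 362384 shared sites. At those 18, pooled, 3.01% of DNA reads were changed with the enzyme (255 of 8485, exact binomial 95% interval 2.65 to 3.39) and 0.887% in the control (75 of 8452, 0.699 to 1.11). The intervals cover counting error only, and with 1 library each there was no test.

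Whether the line difference was the same for a nuclear and a cytoplasmic enzyme was tested as an interaction over 8 libraries, on 5132 genes with at least 5 sites listed for both constructs in both lines. The line difference is signed, K562 minus HEK293T on the log2 scale, and the interaction is its NLS value minus its NES value, so a positive interaction does not say that the nuclear difference is the greater in size. The interaction was positive in 776 genes (15.1%) and negative in 1090 (21.2%). As deposited, 446 were positive and 1492 negative. TUG1 was the furthest of the named genes. Over the 56 sites of all 4 tables, NLS gave 16.7% ± 0.412 (SD, n = 2) in HEK293T and 10.8% ± 0.113 in K562, and NES gave 5.48% ± 0.0883 and 16.4% ± 0.231. The nuclear rate was thus higher in HEK293T and the cytoplasmic rate higher in K562, with a difference of -2.10 between the line differences (SE 0.08, limma adjusted p = 1.08e-11).

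Several proliferation genes showed the same crossing. MKI67, the Ki-67 antigen, had 15.9% ± 1.07 (SD, n = 2) in HEK293T and 10.0% ± 0.397 in K562 with NLS, and 7.07% ± 0.392 and 19.1% ± 0.617 with NES (-2.0). ASPM, a spindle pole protein, had 21.7% and 16.5% with NLS and 7.79% and 24.6% with NES (-1.95). CCNB1, cyclin B1, had 7.57% and 5.95% with NLS and 4.68% and 9.54% with NES (-1.28), and CENPF, a kinetochore protein, 14.0% and 12.6% against 8.41% and 19.3% (-1.25). Over all 5132 genes of this test 21.2% were negative and 15.1% positive, the reference for the interaction counts of the lists. Of 47 G2 and mitosis mRNAs the interaction was negative in 33 and positive in 1, with a median line difference of -0.28 with NLS and 0.14 with NES. Ribosomal protein mRNAs did likewise in 73 of 81, with medians of -0.36 and 0.08, and 2 were positive. Respiratory chain mRNAs had a negative interaction in 24 of 45 and a positive one in 1, and secreted, ER and membrane protein mRNAs in 31 of 45 and 0. NDUFA1, of respiratory complex I, had 3.89% and 3.79% with NLS and 4.83% and 12% with NES (-1.26).

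Stress response mRNAs had a median line difference of -0.60 with NLS and -0.27 with NES. The interaction was past the threshold in 16 of 24 and negative in all 16, next to 21.2% negative and 15.1% positive over all genes. Cholesterol and fatty acid genes were at 0.30 with NLS and 0.13 with NES, with a positive interaction in 9 of 22 and a negative one in 2. The named genes with a positive interaction began with TWF1, with 8.73% ± 0.628 (SD, n = 2) in HEK293T and 19.6% ± 0.259 in K562 for NLS and 21.6% ± 0.215 and 17.8% ± 0.573 for NES (1.55). VAMP3, a vesicle SNARE, had 6.24% and 12.1% with NLS and 11.3% and 10.2% with NES (1.20). WASL, the actin nucleation promoter N-WASP, had 22.9% and 29.6% with NLS and 35.9% and 19.6% with NES (1.34), so its line difference was 0.12 with NLS and -1.23 with NES. FAM83D, a spindle protein, had 19.4% and 18.3% with NLS and 26.3% and 12% with NES (1.15), line differences of -0.34 and -1.49. In WASL and FAM83D the cytoplasmic difference was thus the greater in size. OSGEP, of tRNA threonylcarbamoyl modification, had 11.8% and 24.4% against 17.8% and 18.0% (1.14), and ARRDC4, an arrestin-domain protein, 19.9% and 40.7% against 15.9% and 16.0% (1.11).

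**Figure D3:**
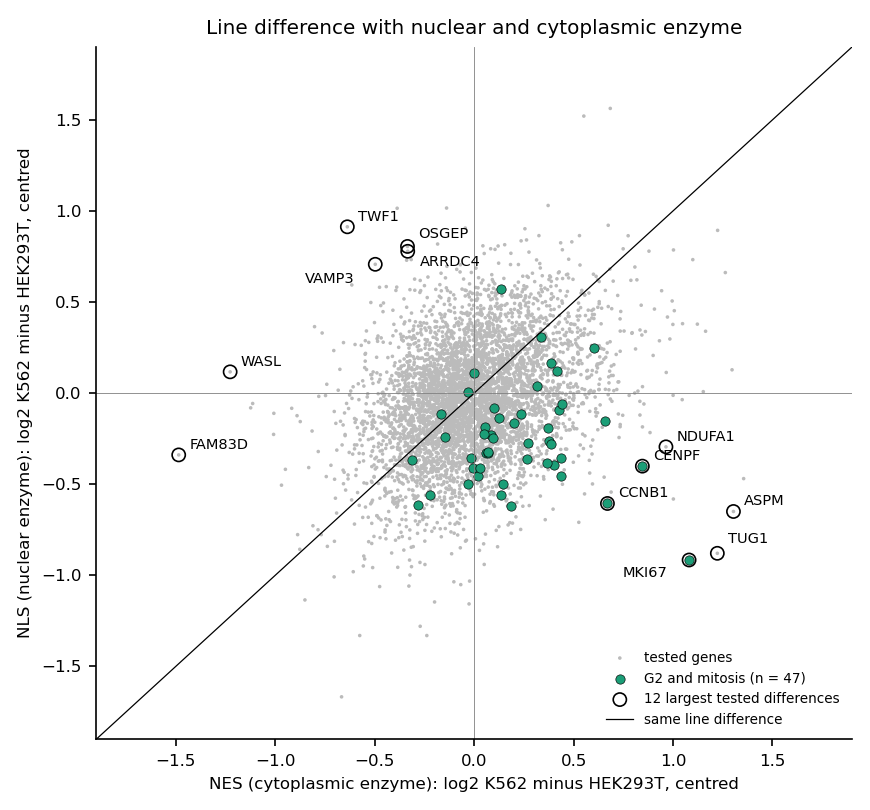
Log2 difference between K562 and HEK293T after centring for the cytoplasmic (NES, x axis) and the nuclear (NLS, y axis) enzyme, 1 point per tested gene (5132), with 47 G2 and mitosis genes in green and the 12 named genes circled. TUG1 and MKI67 lie low and to the right, with the nuclear rate lower and the cytoplasmic rate higher in K562, and TWF1 lies at the upper left.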

How the data were processed

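Poly(A) RNA was sequenced from sorted K562 and HEK293T cells with a stranded kit, per the labels' protocols. Per the submitters' processing notes cutadapt, STAR, Bowtie2 and SAMtools were used on hg38, and bedtools 2.27.0, cutadapt 2.6, STAR, SAMtools and Picard for genomic DNA. The calling of sites is, in the sources used here, not given. Each deposited fraction is the share of changed reads in 1 library, per the file headers, with no number of reads, so depth is unknown. Each site also has the authors' adjusted p-value for each replicate, under 0.05 throughout. The genomic DNA table holds the authors' read count and changed read count per position.

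Sites were joined on chromosome, position and strand, and 3727 shared sites with unlike or several gene names were left out of gene fits. The gene rate was the mean over at least 5 shared sites. Its log2, centred on each library's median gene, was tested with limma 3.58.1 (R 4.3.3), two-sided, with a variance trend on the log2 number of sites, Benjamini-Hochberg adjustment over all genes and a threshold of 0.05. The interaction used 8 libraries. On simulated data 59% of genes moved by 0.5 log2 and 93% of those moved by 1 were recovered among 5600 (7 false calls), and 46% and 87% among 5132 in the interaction (4 false). The added site fit was simulated with the variances it had itself fitted, and the other fits with each item's replicate spread. The added fit recovered 85% at 1 log2 among the most precise 10% of sites (15 false calls over 362384 sites). Within genes it recovered 86% (6 false over 355243). Its recovery is therefore not on 1 footing with that of the other fits.

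The members and gene lists were chosen with earlier results of these data known, so lists are described by counts and medians and no set test was made. Named genes were the 12 largest in each direction with at least 10 shared sites and no overlap of libraries, up to 4 members per list with most shared sites, the 8 genes with most sites in 1 line only and up to 4 such list members, the 6 sites and the 6 interaction genes furthest in each direction. Sites had at least 5% in the lower line, 1 per gene. Named genes of the first and last kind had at least 80% of their sites inside the RefSeq interval of that symbol, and 99.9% of tested genes had an interval. Some genes that the rule selects are not reported here. Alternatives covered centring, filters on sites, the gene summary, the variance model, each library left out and a replicate block. Scripts used Python 3.11.15 with scipy 1.17.1, numpy 2.4.6, matplotlib 3.10.9 and pandas 2.3.3, and folding used ViennaRNA 2.7.2.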

Additional observations from a re-analysis of the deposited data

Results flagged for a closer look

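The line difference itself differed between the nuclear and the cytoplasmic enzyme by the limma interaction test in 776 genes with a positive and 1090 with a negative value of NLS minus NES. The sign does not say which of the line differences is the greater in size. The named genes with a negative value were TUG1 (-2.10 on the log2 scale), MKI67 (-2.0), ASPM (-1.95), CCNB1 (-1.28), NDUFA1 (-1.26) and CENPF (-1.25). Those with a positive value were TWF1 (1.55), WASL (1.34), VAMP3 (1.20), FAM83D (1.15), OSGEP (1.14) and ARRDC4 (1.11). The 12 genes remained past the threshold in the same direction in all 8 alternatives of that fit. Groups of 2 libraries were too small to look for single libraries far from the others.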

How the results depend on the processing

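Without centring, 2734 genes were higher and 388 lower in K562, and 1355 of the 2412 genes called after centring were called in the same direction. The interaction gave 446 genes with a positive value without centring. With only sites at an adjusted p under 1e-6 in all 4 libraries, 464 genes were higher and 734 lower, with fewer genes tested. The other 12 settings kept both gene counts within 1.5 times, and leaving out 1 library gave 726 to 745 higher and 1104 to 1203 lower. Replicate numbers did not pair the libraries (correlation of deviations -0.022), and with a replicate block 841 genes were higher and 1309 lower. The added site fit, chosen after seeing the data, gave 2240 sites higher and 6443 lower, and within genes 33 and 44. Without HEK293T replicate 1, HEK293T replicate 2, K562 replicate 1 or K562 replicate 2, in that order, it gave 505, 646, 2899 and 2655 sites higher, 2036, 2455, 8227 and 7597 lower, and within genes 22, 19, 129 and 114 higher and 16, 18, 416 and 306 lower. The mean rate difference was 0.978 points over the median of site rates and 1.08 to 1.42 when 1 library was left out. With at least 5 listed sites, 504 genes were listed only in K562 and 780 only in HEK293T. Without centring the sign changed for SRSF10 (0.15), GATA2 (0.080), VIM (0.17), ATF4 (0.060), ARRDC3 (0.088), TXNIP (0.14), EIF2S3 (0.16), GAPDH (0.10), RPL4 (0.11) and RPL3 (0.24), by construction of the centring. TFRC, which was not called, changed sign with the mean of log2 site rates (-0.028) and, when 1 library was left out, ranged from -0.040 to 0.079. Without the variance trend MALAT1, HNRNPH1, SRSF10, GATA2, ATF4, ARRDC3, TXNIP, EIF2S3, ATP5F1B, ENO1, GAPDH, TOP2A and RPL4 were not called. Over only sites also listed with NES, GATA2 (-0.12), ARRDC3 (-0.081) and TXNIP (-0.12) were not called and SNHG1 stood at -0.55. The median of site rates gave SRRM2 -0.47 and HMGCS1 0.44, and only sites at an adjusted p under 1e-6 gave TNFRSF10B -0.27 and SMC4 -0.18. Where not stated, the cause was not tested. Without counts the depth behind a site is unknown, and so is its part in which sites are listed.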
